A study of Mus musculus with 2 samples.

Results

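The cell cycle genes described here are 42 genes chosen by symbol from the gene list of the count matrices, and all 42 were found among its 26124 genes. Of these, 24 act in G2 and mitosis and 18 in S phase or its preparation, and each of the 42 had at least 1 UMI (unique molecular identifier, 1 captured RNA molecule) in each of the 2 libraries. Each library held spleen cells from 1 untreated mouse aged 12 to 16 weeks, taken after lysis of red blood cells and positive selection with beads against F4/80, a surface protein of macrophages. The control mouse was homozygous for Hbatm1Paz, a deletion of mouse α-globin, heterozygous for Hbbtm1Tow, a deletion of mouse β-globin, and hemizygous for Tg(HBA-HBBs)41Paz, which carries the human sickle globin genes, and it did not sickle. The SCD (sickle cell disease) mouse was homozygous at all 3 and sickled, so the control shared the Hba deletion with it and also carried the transgene. The SCD line is the Berkeley model, and the controls were littermates. With 1 mouse per genotype there was no estimate of the spread between mice.

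A dividing cell copies its DNA in S phase and separates the copies in mitosis, and it makes a different set of mRNAs for each task. E2F factors switch on the replication genes at the start of S phase, whereas the DREAM complex represses G2/M genes in resting cells and B-MYB with MuvB, and FOXM1, activate them later. These complexes act at CHR elements near the start sites, and NF-Y binds the CCAAT boxes there. In the spleen of mice, erythroblasts divide while they mature, often bound to a central macrophage in an erythroblastic island, and red pulp macrophages engulf aged red cells and the nuclei that erythroblasts shed.

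Promoter sequences are shown first, because they describe the 2 groups without any use of the counts. RefSeq windows on GRCm38.p6 from 250 bases before to 50 bases after a start site were at hand for 35 of the 42 genes (37 windows, 20 G2/M and 17 S). Not among them were Aurkb, Mcm4, Tpx2, Ccne2, Kif20a, Gins2 and Ccna2. A CHR motif (TTTGAA or TTTAAA, either strand) was present in 85% of the G2/M windows, 35.3% of the S windows and 27.6% of all 32851 windows of this length. A CCAAT motif (CCAAT, either strand) was in 85%, 76.5% and 37.4%, and both motifs together were in 80%, 29.4% and 10.7%. An E2F motif (TTTGGCGC, TTTCGCGC, TTTCCCGC or TTTGCCGC, either strand) was in 5% of the G2/M windows, 35.3% of the S windows and 2.26% of all windows. Matches of different motifs were counted also where they shared letters. A match is a match of letters and not a measured binding site.

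The 200 bases before the start site are printed 5′ to 3′ on the gene's strand for the 4 G2/M genes with at least 2 CHR matches in them (capitals mark CHR and CCAAT matches).
Plk1 (chr7:122159235-122159434, plus strand): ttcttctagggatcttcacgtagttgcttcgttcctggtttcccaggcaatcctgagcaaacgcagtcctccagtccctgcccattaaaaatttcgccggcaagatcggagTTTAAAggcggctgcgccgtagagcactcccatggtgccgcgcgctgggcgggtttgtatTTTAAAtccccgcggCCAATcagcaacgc
Mki67 (chr7:135716380-135716579, minus strand): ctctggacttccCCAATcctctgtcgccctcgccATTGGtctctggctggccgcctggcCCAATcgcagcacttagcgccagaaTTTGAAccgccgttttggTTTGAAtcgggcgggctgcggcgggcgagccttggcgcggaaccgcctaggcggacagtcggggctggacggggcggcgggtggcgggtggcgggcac
Cdk1 (chr10:69352913-69353112, minus strand): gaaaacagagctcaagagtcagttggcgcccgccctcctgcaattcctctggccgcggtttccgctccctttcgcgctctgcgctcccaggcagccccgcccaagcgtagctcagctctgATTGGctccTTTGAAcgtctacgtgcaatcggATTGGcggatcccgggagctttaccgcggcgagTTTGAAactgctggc
Top2a (chr11:99024190-99024389, minus strand): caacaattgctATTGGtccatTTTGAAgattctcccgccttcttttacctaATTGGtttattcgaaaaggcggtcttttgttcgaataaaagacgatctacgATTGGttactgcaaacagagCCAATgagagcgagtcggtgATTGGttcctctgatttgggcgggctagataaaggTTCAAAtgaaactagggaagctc

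The same stretch is printed for 3 of the S genes with an E2F match, all of origin licensing (capitals mark E2F and CCAAT matches).
Mcm6 (chr1:128359706-128359905, minus strand): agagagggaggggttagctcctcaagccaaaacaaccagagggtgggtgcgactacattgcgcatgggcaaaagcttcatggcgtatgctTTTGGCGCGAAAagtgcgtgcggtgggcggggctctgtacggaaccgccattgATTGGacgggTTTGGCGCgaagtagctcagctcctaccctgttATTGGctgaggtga
Mcm5 (chr8:75109309-75109508, plus strand): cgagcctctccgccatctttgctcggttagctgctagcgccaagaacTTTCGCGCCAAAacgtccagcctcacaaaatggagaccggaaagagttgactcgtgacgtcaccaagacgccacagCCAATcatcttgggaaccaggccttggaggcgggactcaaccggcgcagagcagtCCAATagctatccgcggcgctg
Cdc6 (chr11:98907951-98908150, plus strand): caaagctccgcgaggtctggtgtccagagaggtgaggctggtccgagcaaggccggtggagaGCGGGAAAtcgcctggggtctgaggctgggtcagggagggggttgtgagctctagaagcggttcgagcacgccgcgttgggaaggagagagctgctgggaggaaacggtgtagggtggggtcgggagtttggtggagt

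Before the counts are compared, 1 check went against the labels. In erythroid-like cells the mouse β-globin mRNA Hbb-bs was at 148 CPM (UMIs in 1000000) in one library, labelled wild-type, and at 46106 in that labelled SCD, although the SCD genotype is homozygous for the Hbb deletion. Hbb-bt was at 275 and 15541, and Hba-a1 at 26778 and 29448, although both genotypes are homozygous for the Hba deletion. Both are therefore called the wild-type-labelled and the SCD-labelled library throughout, and each direction between them below rests on those labels. After filtering, 19418 and 12279 cells were kept, with medians of 4116 and 4571 UMIs, and 65 of the kept cell barcodes occurred in both libraries. Values below are UMIs scaled to a total of 1000000 UMIs in the cells summed (CPM), with 95% exact Poisson intervals. All intervals cover counting error only, and no test between the 2 conditions was possible with 1 library each. Cells were clustered without the cell cycle genes, and clusters were named from marker genes. Levels of single genes are not ranked against each other, and ratios of gene groups are given to compare classes.

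Of all cell classes, erythroid-like cells had the highest level of cell cycle mRNA in both libraries and held the largest share of it. The 42 genes summed to 20462 (95% interval 20393 to 20531) CPM in the 1981 erythroid-like cells of the wild-type-labelled library and to 25061 (95% interval 24797 to 25327) in the 168 of the SCD-labelled library. These cells were 10.2% and 1.37% of the kept cells and held 61.8% and 35.8% of the cell cycle UMIs. Granulocyte-monocyte progenitor-like cells, which carry mRNAs of primary granule enzymes, came next among the classes with 11007 (95% interval 10864 to 11152) in 172 cells of the wild-type-labelled library, and the SCD-labelled library had 11605 in 6 such cells. An unnamed cluster led by Il2rb, Trbc2, Cd3g, Cep55 and Pimreg had 10261 (95% interval 10062 to 10462) in 168 cells and 10275 (95% interval 10112 to 10441) in 269 cells, which were 1.86% and 15.6% of all cell cycle UMIs. Neutrophil-like cells had 5673 (95% interval 5569.7 to 5778) in 277 cells of the wild-type-labelled library and 3230.4 (95% interval 2699 to 3836) in 15 cells of the SCD-labelled library.

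The remaining classes sat far lower. Red pulp macrophage (RPM)-like cells, which carry Spic, Vcam1 and C1q mRNAs, had 1118 (95% interval 1102 to 1134) in 4739 cells and 604 (95% interval 586 to 621) in 1640 cells. The main B lymphocyte-like cluster, used as the reference because resting B cells should hold little of this mRNA, had 932 (95% interval 882 to 985) in 516 cells and 773 (95% interval 750.3 to 795) in 1727 cells, and Ly6c-high monocyte-like cells had 1075 and 473. Ly6c-low monocyte-like cells had 1004 and 609, and mature dendritic cell (DC)-like cells had 1034 and 523. In the wild-type-labelled library these 3 classes and RPM-like cells lay within 1004 to 1118, all above the reference value of 932. In the SCD-labelled library all 4 lay below the reference value of 773. Clusters with both macrophage and erythroid markers, called EBI-like here after the erythroblastic island, had 3332 (95% interval 3311 to 3352) in 5684 cells and 2468 (95% interval 2419 to 2517) in 914 cells, and are taken up separately. The 5 unnamed clusters other than the Il2rb-led cluster ranged from 743 to 1648 in the wild-type-labelled library and from 519 to 1095 in the SCD-labelled library. Cells over the limit of 5000 genes, 1112 and 175 in number, were left out of all classes and had 7570.5 and 5595.

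**Figure D1:**
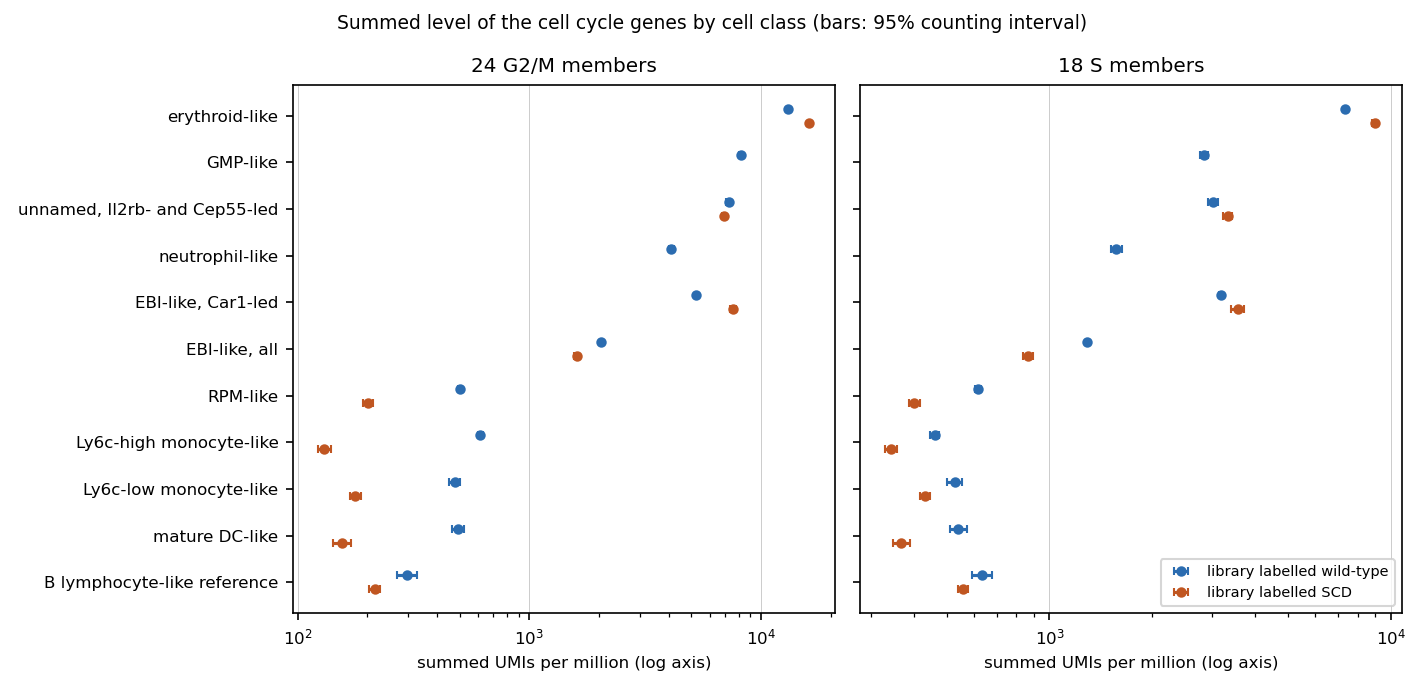
Summed CPM (log axis) of the 24 G2/M genes (left) and the 18 S genes (right) in each cell class, with 1 point per library and bars for the 95% counting interval; classes with under 20 cells in a library have no point. Erythroid-like cells lie highest in both panels (13086 and 16083 for G2/M), and the S genes of the B reference (635 and 557) lie level with or above those of the RPM-like cells (618 and 402).

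Shares of cells were read at 1 depth, after each cell was thinned at random to 1000 UMIs and shallower cells were left out. At least 3 cell cycle UMIs in 1000 were found in 99.1% (98.6 to 99.5%) of erythroid-like cells in the wild-type-labelled library and 98.8% (95.8 to 99.9%) in the SCD-labelled library, and in 98.8% (95.9 to 99.9%) of progenitor-like cells of the wild-type-labelled library. The Il2rb-led cluster had 63.5% (55.4 to 71%) and 56.9% (50.1 to 63.5%), and neutrophil-like cells of the wild-type-labelled library had 45.9% (39.9 to 52.1%). The B reference gave 8.98% (6.65 to 11.8%) and 4.38% (3.46 to 5.46%), which is the background of this readout. RPM-like cells had 13.4% (12.3 to 14.5%) in the wild-type-labelled library, above that background, and 4.35% (3.37 to 5.51%) in the SCD-labelled library, at it. The share of RPM-like cells in the wild-type-labelled library did not exceed the reference under some other settings: it was 27.4% beside 28.1% of the reference after thinning to 2000 UMIs, and 6.97% without the RPM-like cluster of lowest depth, an alternative added after the data were seen. With a limit of 5 UMIs it was above the reference, 4.64% beside 0.781%. Ly6c-high monocyte-like cells had 8.09% and 1.89%, Ly6c-low monocyte-like cells 7.64% and 3.25%, and mature DC-like cells 8.13% and 1.74%, all at or below the background of their library. Without thinning, the shares were 45.5% and 37% in RPM-like cells (median depths 2121 and 4070 UMIs) and 39.1% and 33.4% in the B reference (2197 and 2898 UMIs), 99.9% and 99.4% in erythroid-like cells, 73.8% and 59.5% in the Il2rb-led cluster and 68.2% in neutrophil-like cells of the wild-type-labelled library. Thinning left out 689 and 145 RPM-like cells, 4 and 15 reference cells, 10 and 0 erythroid-like cells and 12 and 44 cells of the Il2rb-led cluster.

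The G2/M genes are given by role, always with the value of the wild-type-labelled library before that of the SCD-labelled library. Mki67, which coats mitotic chromosomes and is the standard mark of proliferation, was at 2995 and 3871 CPM in erythroid-like cells, against 69 and 16.3 in RPM-like cells and 34.9 and 22.3 in the B reference. Top2a, the topoisomerase that untangles sister DNA, was at 1779 and 1983 CPM in erythroid-like cells, against 66.8 and 24.1 in RPM-like cells and 32.7 and 29.2 in the B reference, and reached 1633 in progenitor-like cells of the wild-type-labelled library. In RPM-like cells both genes were above the reference in the wild-type-labelled library. In the SCD-labelled library Mki67 was below it (log2 ratio -0.45, interval -0.82 to -0.09). The interval of Top2a there included 0 (-0.28, interval -0.59 to 0.03). Among kinetochore and checkpoint genes, Bub1, a checkpoint kinase, was at 109.6 and 136 CPM in erythroid-like cells, against 5.17 and 1.72 in RPM-like cells and 4.45 and 0.675 in the B reference. Cenpa, the histone H3 variant of centromeres, was at 394 and 491 CPM in erythroid-like cells, against 22 and 17.7 in RPM-like cells and 43.1 and 52.9 in the B reference. Cenpa was higher in the B reference than in RPM-like cells of both libraries. The direction of Bub1 cannot be read. In the SCD-labelled library it had 13 UMIs in RPM-like cells and 4 in the reference (log2 ratio 1.35, interval -0.35 to 3.42). In the wild-type-labelled library the 2 levels lay close together.

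Of the mitotic cyclins, kinases and proteolysis genes, Ccnb1, the cyclin B1 that activates Cdk1, was at 304 and 293 CPM in erythroid-like cells, against 12.5 and 3.57 in RPM-like cells and 3.71 and 3.55 in the B reference. Cdk1, the kinase that drives entry into mitosis, was at 236 and 340.2 CPM in erythroid-like cells, against 13 and 4.50 in RPM-like cells and 5.94 and 2.20 in the B reference. Ube2c, the ubiquitin-conjugating enzyme of the anaphase-promoting complex, was at 1454 and 1917 CPM in erythroid-like cells, against 50.7 and 19 in RPM-like cells and 21.5 and 12 in the B reference. All 3 were higher in RPM-like cells than in the reference in the wild-type-labelled library, and Cdk1 and Ube2c were in the other library too, where Ccnb1 was level. Of the spindle genes, Tpx2, which nucleates microtubules and activates Aurora A, was at 365 and 429.5 CPM in erythroid-like cells, against 13.1 and 4.50 in RPM-like cells and 5.20 and 3.55 in the B reference. Kif11, the motor that pushes spindle poles apart, was at 444 and 645 CPM in erythroid-like cells, against 17.2 and 6.88 in RPM-like cells and 7.42 and 6.59 in the B reference. Kif23, a motor of the central spindle used in cytokinesis, was at 224 and 271 CPM in erythroid-like cells, against 27.4 and 40.5 in RPM-like cells and 11.1 and 14.4 in the B reference, and was named after its values were seen. It was higher in RPM-like cells than in the reference in both libraries.

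Of the S genes, Mcm5, a subunit of the replicative helicase, was at 412 and 404 CPM in erythroid-like cells, against 39.1 and 14.3 in RPM-like cells and 27.5 and 35.8 in the B reference. Cdc6, which loads that helicase onto origins, was at 262 and 279 CPM in erythroid-like cells, against 7.67 and 1.72 in RPM-like cells and 5.20 and 2.20 in the B reference. Pcna, the sliding clamp of the polymerases, was at 1085 and 1598 CPM in erythroid-like cells, against 172 and 149 in RPM-like cells and 149 and 158 in the B reference. Rrm2, the small subunit of ribonucleotide reductase, was at 1442 and 1667 CPM in erythroid-like cells, against 47.7 and 13.6 in RPM-like cells and 32.7 and 11.5 in the B reference. The Pcna levels of RPM-like and reference cells lay close together in both libraries, apart from the erythroid-like level. Cyclin E opens S phase, and its genes Ccne1 and Ccne2 were at 163 and 198 and at 294 and 343 in erythroid-like cells. In RPM-like cells Ccne1 was at 6.42 and 1.72 and Ccne2 at 11.5 and 2.91. Uhrf1, which keeps DNA methylation on copied DNA, was at 264 and 300.2 CPM in erythroid-like cells, against 15.9 and 4.76 in RPM-like cells and 8.91 and 9.96 in the B reference. Slbp, which binds the stem-loop of histone mRNA, was at 936 and 1178 CPM in erythroid-like cells, against 85.3 and 75.2 in RPM-like cells and 137 and 115 in the B reference. Slbp, as Cenpa, was higher in the reference than in RPM-like cells of both libraries.

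**Figure D2:**
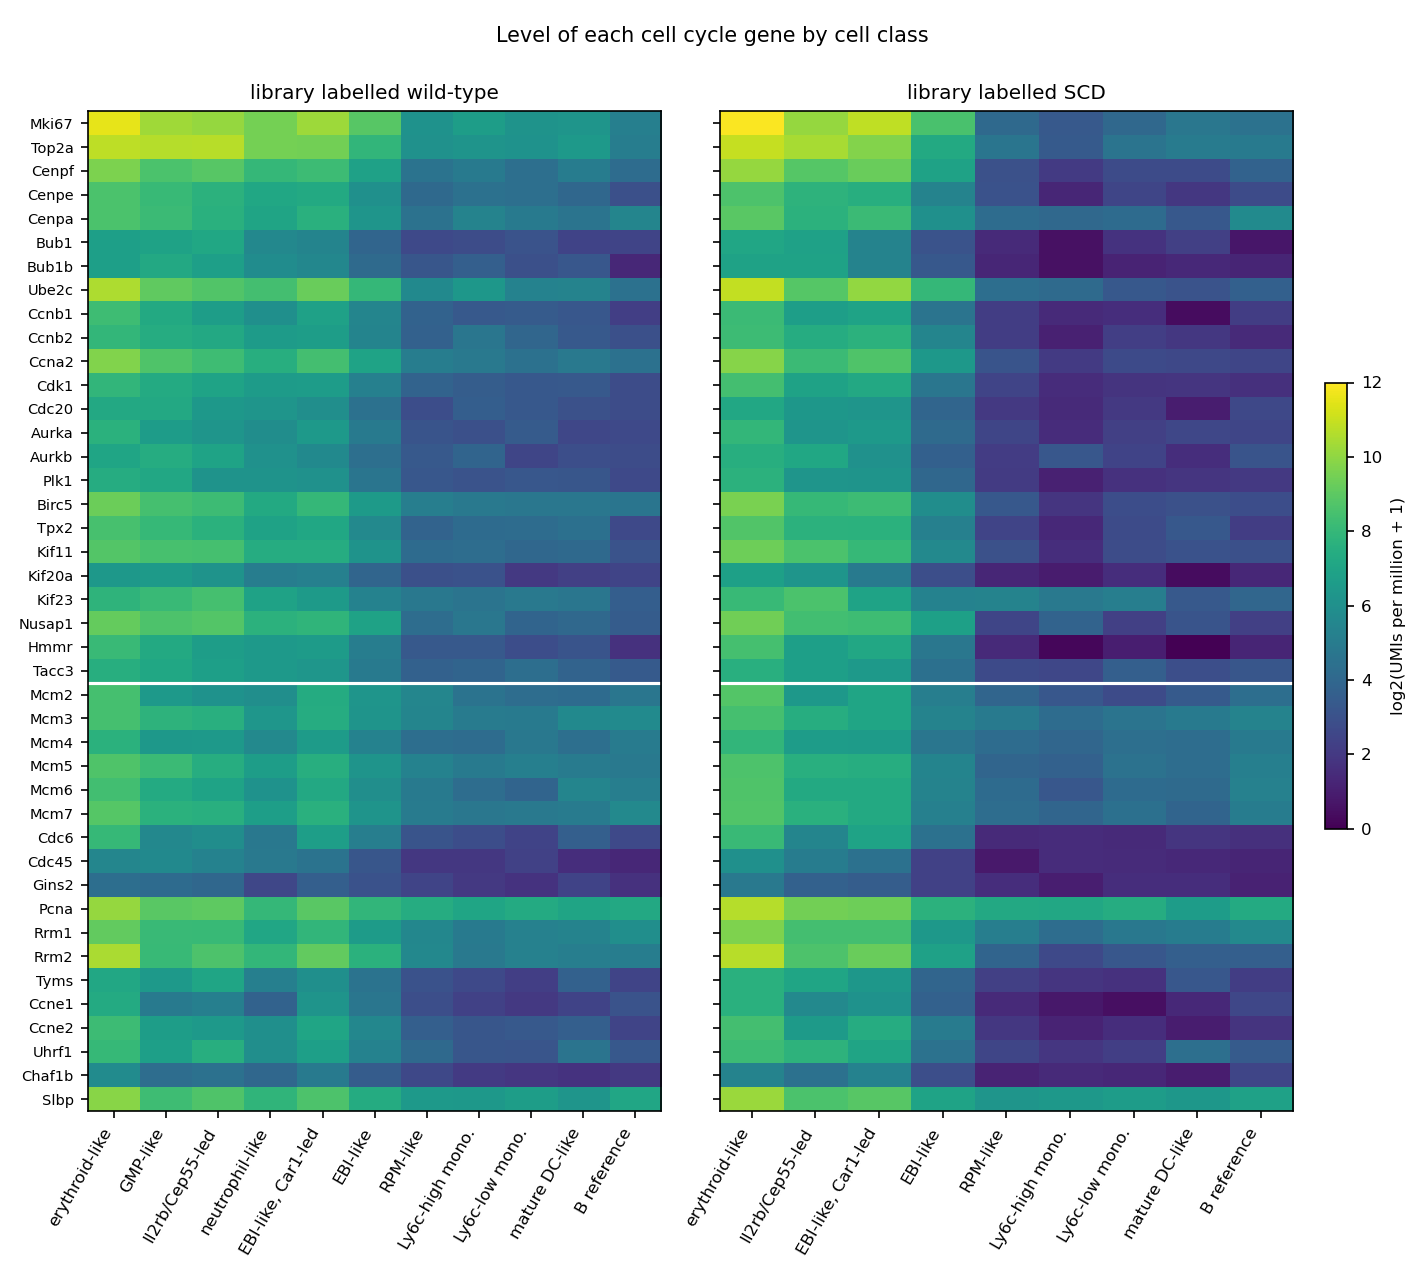
Level of each of the 42 genes, as log2(CPM + 1), in each cell class of the wild-type-labelled library (left) and the SCD-labelled library (right); G2/M genes are above the white line and S genes below it, and classes with under 20 cells are left out. Rows are to be read from left to right and not against each other. Erythroid-like cells are brightest in most rows but not in all. Kif23 was at 355 and 392 CPM in the Il2rb-led cluster, above 224 and 271 in erythroid-like cells. Pcna and Slbp stay bright in every class (for Pcna 149 and 158 CPM in the B reference).

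Set against the B reference of the same library, all 42 genes with at least 100 UMIs over both classes were at least 2-fold higher in erythroid-like cells of the wild-type-labelled library, beside 20.3% of all genes tested, and all 39 were in the SCD-labelled library, beside 14.9%. The median log2 ratio was 5.31 and 6.46 for G2/M genes and 3.86 and 4.05 for S genes. In progenitor-like cells of the wild-type-labelled library it was 39 of 39 genes, beside 19%, and in the Il2rb-led cluster of the SCD-labelled library 38 of 38, beside 11.4%. The count for the Il2rb-led cluster is a description, since Cep55, a leading gene of it, was not among the genes left out of clustering. A gene could pass the limit of 100 UMIs through the class where it was high, so the other counts are descriptions too. With more than 3 UMIs required in the reference, it was 38 of 38 and 42 of 42 genes in erythroid-like cells. At that limit it was 38 of 38 in these progenitor-like cells and 42 of 42 in the Il2rb-led cluster of the SCD-labelled library. RPM-like cells of the wild-type-labelled library had 11 of 38 genes at least 2-fold higher and 0 lower, beside 20.2% and 16.6% of all genes, and 10 of the 11 were G2/M genes. RPM-like cells of the SCD-labelled library had 1 of 17 higher, which was Kif23, and 3 lower, beside 18.9% and 13.4%. The balance of the groups differed too: the S sum over the G2/M sum was 0.564 and 0.558 in erythroid-like cells, 0.417 and 0.479 in the Il2rb-led cluster, 1.23 and 1.99 in RPM-like cells and 2.13 and 2.59 in the B reference. Pcna and Slbp, found in every class, weigh on the S sums of RPM-like and reference cells. Taken over both groups, the shares of higher genes in RPM-like cells differed from those of all genes by few genes in either library. No direction is read from them. Where more than 3 UMIs in the reference were required, 9 of 38 genes were over 2-fold higher in RPM-like cells of the wild-type-labelled library. By group these were 8 of 22 G2/M genes (median fold 1.72) and 1 of 16 S genes (1.29), with 1 and 7 genes below the reference. In the SCD-labelled library it was 4 of 24 (1.08) and 0 of 18 (0.667), with 9 and 14 below. The share of all genes at that limit was not counted. The counting setting for strand was not given in the sources used here, and 16 of the 42 genes overlap a gene on the other strand and 7 1 on the same strand, so some of their UMIs may belong to the neighbour.

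At a finer clustering the erythroid-like cells split into several clusters, and the 2 that kept the erythroid name, which differ in erythroid stage, are compared here. The first, led by Tac2 and Car1, held 926 and 103 of them, and the second, led by Gm867, held 472 and 45. In the wild-type-labelled library, 532 others, more than in the Gm867-led cluster, fell to a cluster with macrophage markers and 51 to 1 with B lymphocyte markers. Those cells were not part of the comparison. From the Car1-led to the Gm867-led cluster, the late markers were higher in both libraries: Alas2, the first enzyme of heme synthesis in erythroid cells, went from 1034 to 2920.2 CPM in the wild-type-labelled library and from 1047 to 2636 in the SCD-labelled library, and Slc4a1, the band 3 anion exchanger, from 3631 to 7499 and from 3577 to 7651. Summed S genes went from 10797 to 3023 in the wild-type-labelled library and from 11983 to 2499 in the SCD-labelled library. Summed G2/M genes went from 13026 to 19881 and from 13692 to 25663. All 18 S genes were lower in the Gm867-led cluster in the wild-type-labelled library (median log2 ratio -2.23), and 17 were in the SCD-labelled library (-2.73), where Gins2 had no UMI in that cluster. Of the 24 G2/M genes 21 were higher in the wild-type-labelled library (median 0.31) and 24 in the SCD-labelled library (0.62). Some of these intervals included 0, as for Bub1 (0.07, interval -0.47 to 0.59) and Aurkb (0.08, interval -0.39 to 0.52) in the SCD-labelled library. The share of all genes higher or lower between these 2 clusters was not counted, so the counts have no background beside them. Pcna had log2 ratios of -2.21 and -3.49, Ccne1 -2.88 and -3.78, and Mcm5 -2.61 and -3.36, while Cenpf, a kinetochore protein of late G2, had 0.98 and 1.74. These are descriptions, since clustering used genes that move with the cycle, and Cdc6 and Ube2c are themselves among the leading genes of the first and the second cluster.

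**Figure D3:**
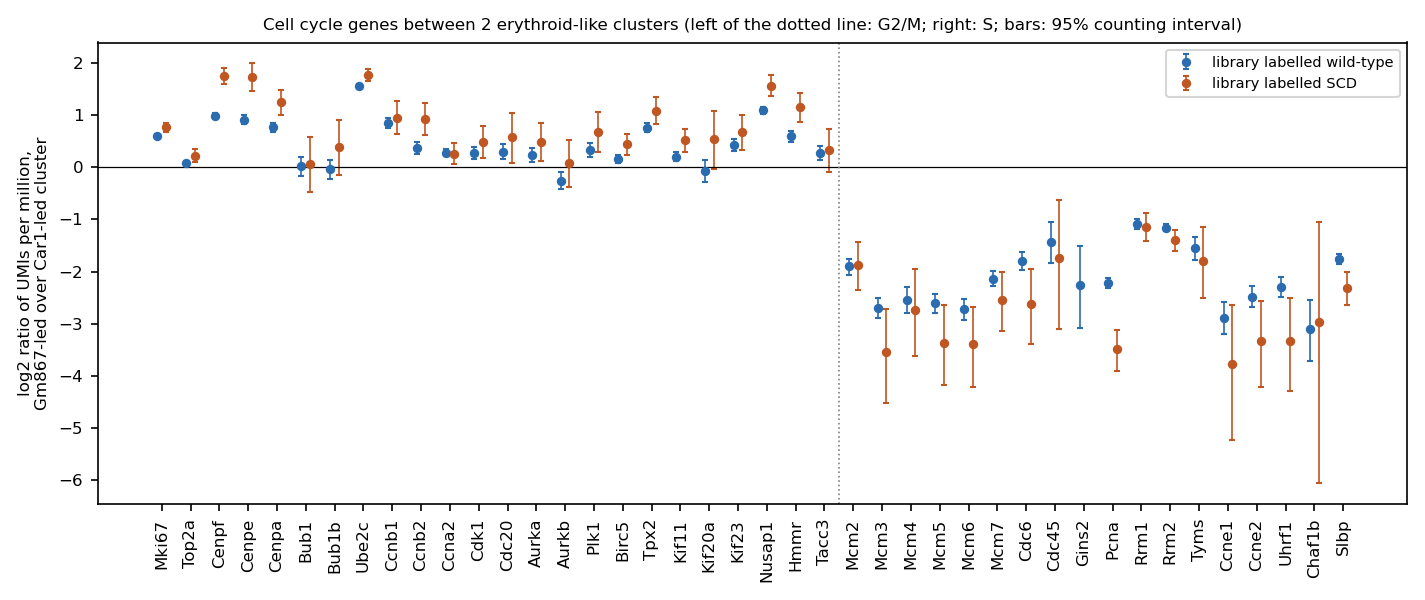
Log2 ratio of CPM in the Gm867-led over the Car1-led erythroid-like cluster for each gene, 1 point per library with its 95% counting interval; G2/M genes are left of the dotted line and S genes right of it. The S genes lie below 0 in both libraries (median -2.23 and -2.73), and most G2/M genes lie above 0 (median 0.31 and 0.62).

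The same split appeared from cell to cell. Across erythroid-like cells, Pearson's r of log-normalized levels had a median of 0.28 and 0.31 over pairs of G2/M genes, 0.51 and 0.49 over pairs of S genes and -0.04 and -0.16 over pairs of 1 gene from each group (1981 and 168 cells of 1 library each, which share depth). The closest pair was Pcna and Slbp (r = 0.78 and 0.82), and Ube2c and Ccne2 were among the most opposed (r = -0.48 and -0.63). In progenitor-like cells of the wild-type-labelled library the medians were 0.38, 0.35 and -0.30, with the same order of signs. In the Il2rb-led cluster the medians were 0.52 and 0.52 for G2/M pairs, 0.37 and 0.43 for S pairs and 0.09 and 0.15 across groups. That cluster was mixed: at the finer clustering 89 and 103 of its cells were led by Cep55 and Pimreg, both mitotic genes, and had 12584 and 12885 CPM, while 61 and 67 T lymphocyte-like cells had 2325 and 762. A further 18 and 97 cells led by Tlr3, Mycl and Naaa had 3913 and 3445. Of the Cep55-led cells 2.25% and 0.971% held a UMI of the T lymphocyte markers at 1000 UMIs and 13.5% and 12.6% 1 of the B lymphocyte markers, so they were not named. Shares were counted for lymphocyte, NK, plasma cell, Ly6c-high monocyte, cDC1, cDC2 and plasmacytoid DC markers only. Among these, cDC2 markers had the highest, at 23.6% and 22.3%, and cDC1 markers were found in 14.6% and 6.80%. No share was counted for macrophage and erythroid markers, which were at 3133 and 1383 CPM and at 416 and 120 CPM in these cells.

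The next question was how the cell cycle UMIs of macrophage-like cells stand to the erythroid UMIs in the same cells. Erythroid UMIs are those of 15 erythroid marker genes, and cells thinned to 1000 UMIs were sorted by how many they held. RPM-like cells of the wild-type-labelled library with no erythroid UMI (2004 cells) held 1.08 (1.03 to 1.12) cell cycle UMIs in 1000, those with 1 to 2 (1768 cells) 1.28 (1.23 to 1.33) and those with at least 3 (278 cells) 1.75 (1.60 to 1.91). In the SCD-labelled library the means were 0.633 (0.591 to 0.678) in 1328 cells, 0.838 (0.702 to 0.992) in 160 and 0.286 (0.0346 to 1.03) in 7 cells. The ratio of the highest to the lowest bin was 1.63 in the wild-type-labelled library and cannot be read from 7 cells in the SCD-labelled library. In the B reference that ratio was 1.43 (0.925 to 2.13) in the wild-type-labelled library, an interval that holds 1.63. It was 1.78 (0.575 to 4.16) in the SCD-labelled library. The B reference gave 0.944 (0.834 to 1.06), 1.01 (0.882 to 1.16) and 1.35 (0.890 to 1.96) in the same bins of the wild-type-labelled library (20 cells in the last), with intervals that overlap, and 0.704 (0.663 to 0.747) and 0.816 (0.683 to 0.967) in the first 2 bins of the SCD-labelled library. RPM-like cells with no erythroid UMI in 1000 were 49.5% and 88.8% of the class.

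Erythroid-like cells held 0.783 and 0.838 cell cycle UMIs for each erythroid UMI. At that ratio the erythroid UMIs of RPM-like cells would bring 0.637 cell cycle UMIs per 1000 in the wild-type-labelled library, where 1.21 were measured, and 0.111 in the SCD-labelled library, where 0.654 were measured. As a share of the measured UMIs this was 52.5% and 17% in RPM-like cells, and 50.6% and 13% in the B reference. For G2/M genes alone it was 77.6% and 35.5% in RPM-like cells and 105% and 36.6% in the reference, and for S genes 31.7% and 8.21% and 24.7% and 5.63%. In EBI-like clusters it was far more than measured in the cluster with the highest erythroid level (979% and 1757%), while the Car1-led EBI-like cluster was near the erythroid-like ratio (103% and 125%). Where the share is far over 100%, the erythroid UMIs in those cells came with fewer cell cycle UMIs than in the erythroid-like class. Some cells of the cluster with the highest erythroid level held little macrophage mRNA, as given below. The stage of any carried transcript was not measured, so these shares are a comparison of ratios and not a measured origin. Macrophage clusters had been split into EBI-like and RPM-like by these same 15 markers, with a limit of 2-fold over the B reference. Similar shares in RPM-like cells and the reference therefore follow in part from the naming.

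EBI-like cells differed sharply among themselves. The Car1-led EBI-like cluster had 8434 (95% interval 8372 to 8496) CPM in 948 cells and 11152 (95% interval 10897 to 11411) in 79, and 44.3% and 70.9% of its cells were marked as doublets, compared with 0.485% and 1.71% of RPM-like cells. It held 13% and 7.55% of all cell cycle UMIs. The EBI-like cluster with the most erythroid mRNA (20312 and 30299 CPM) had 2008 and 1389.7 CPM of cell cycle genes, and another cluster, found almost only in the SCD-labelled library (624 cells), had 639. At the finer clustering 315 and 81 cells of the first fell to an unnamed part with 42671 and 42551 CPM of erythroid markers. Their macrophage markers, at 4058 and 1422 CPM, lay below those of the Gm867-led erythroid-like cells (4670 and 2430). Whether these cells are macrophages was not tested. In the second, 619 cells of the SCD-labelled library were also left unnamed there. The 3 other EBI-like clusters had 1028 to 1232 in the wild-type-labelled library and under 30 cells each in the SCD-labelled library. In the Car1-led EBI-like cluster of the wild-type-labelled library the mean went from 3.67 (3.23 to 4.16) in cells with 1 to 2 erythroid UMIs to 16.4 (15.6 to 17.3) in cells with at least 20, while macrophage marker UMIs went from 18.1 to 4.09. In the cluster found almost only in the SCD-labelled library it was 0.580 (0.388 to 0.833) with no erythroid UMI and 0.718 (0.564 to 0.902) with 10 to 19.

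**Figure D4:**
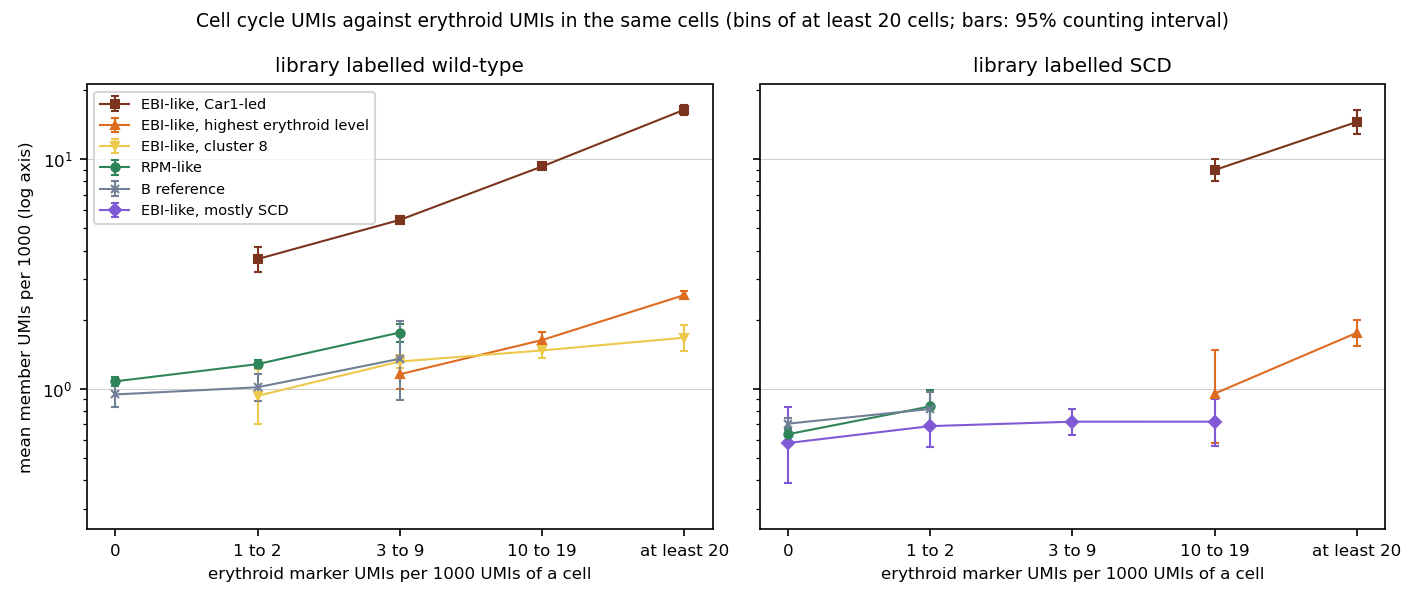
Mean cell cycle UMIs per 1000 UMIs of a cell (log axis) against the number of erythroid marker UMIs in the same 1000, for EBI-like clusters, RPM-like cells and the B reference in the wild-type-labelled library (left) and the SCD-labelled library (right); bins with under 20 cells are left out and bars are 95% counting intervals. The Car1-led EBI-like cluster reaches 16.4 and 14.6 and RPM-like cells start at 1.08 and 0.633 where no erythroid UMI was found.

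Single cells with UMIs of at least 3 different G2/M genes in 1000 were a stricter readout than a sum. Among RPM-like cells they were 149 of 4050 cells (3.68%, 95% interval 3.12 to 4.31%) in the wild-type-labelled library and 21 of 1495 cells (1.40%, 95% interval 0.872 to 2.14%) in the SCD-labelled library, and in the B reference 2 of 512 cells (0.391%, 95% interval 0.0473 to 1.40%) and 6 of 1712 cells (0.350%, 95% interval 0.129 to 0.761%). The RPM-like intervals lay above those of the reference in both libraries. This readout was not repeated at another depth, thinning seed or clustering, or without doublets. The share of RPM-like cells with at least 3 cell cycle UMIs, given above, did not exceed the reference under some settings. By cluster the share was 4.20% and 2.25% in the shallower and the deeper RPM-like cluster of the wild-type-labelled library and 1.42% in that of the SCD-labelled library. Of these RPM-like cells, 70 (47%) and 17 (81%) held no erythroid UMI, beside 49.6% and 88.9% of the other RPM-like cells, and 0.671% and 4.76% were marked as doublets. They held 18.4 and 15.5 macrophage marker UMIs in 1000, beside 21.4 and 19.7 in the others, and 0.940 and 0.190 erythroid UMIs beside 0.808 and 0.132. Ly6c-high monocyte-like cells had 55 of 1496 cells (3.68%, 95% interval 2.78 to 4.76%) and 2 of 1058 cells (0.189%, 95% interval 0.0229 to 0.681%), of which 41.8% in the wild-type-labelled library held no erythroid UMI. Of these monocyte-like cells 47.3% and 50% were marked as doublets. In erythroid-like cells the share was 94.6% and 96.4%, and in the Il2rb-led cluster 51.9% and 44.4%. Mature DC-like cells, with 1.76% and 0.434%, had intervals that overlapped the reference in both libraries.

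**Figure D5:**
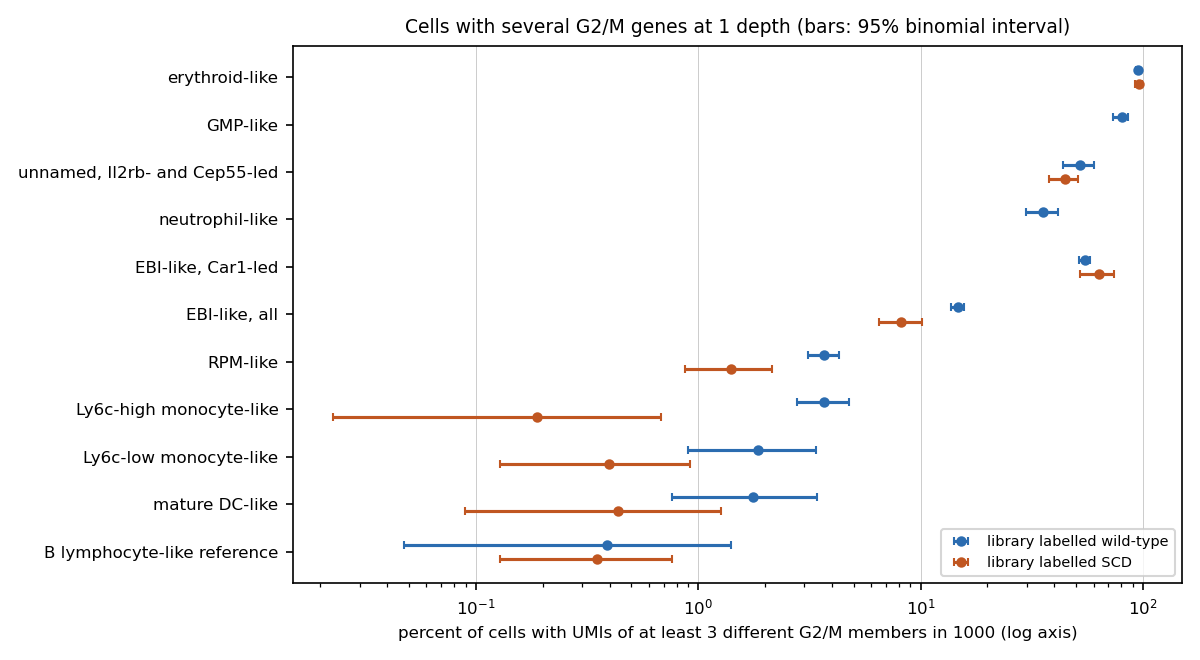
Percent of cells (log axis) with UMIs of at least 3 different G2/M genes among 1000 UMIs, by class and library, with 95% exact binomial intervals; classes with under 20 cells in a library have no point. The RPM-like points (3.68% and 1.40%) lie above the B reference (0.391% and 0.350%) and far below the erythroid-like points (94.6% and 96.4%).

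Between the libraries, the sum over all kept cells was 5103 CPM in the wild-type-labelled library and 1486 in the SCD-labelled library, a log2 ratio (SCD over wild-type) of -1.78, with an interval of -1.79 to -1.77. 40 of the 42 genes were at least 2-fold lower in the SCD-labelled library, beside 9.78% of all genes with at least 100 UMIs over both libraries. The exceptions were Pcna (-0.78) and Kif23 (-0.78), and the lowest were Ccnb1 (-2.48), Ccna2 (-2.48), Cdc6 (-2.44), Rrm2 (-2.36) and Ccne2 (-2.30). The 5 least lowered also held Mcm4 (-1.02), Slbp (-1.04) and Mcm6 (-1.28). Erythroid-like cells were 10.2% of the kept cells in the wild-type-labelled library and 1.37% in the SCD-labelled library, so this ratio moves with the share of that class, and fewer such cells and less of this mRNA per cell are counted together in it. Within erythroid-like cells it was 0.29, with an interval of 0.28 to 0.31, and none of the 42 genes differed by 2-fold, beside 0.838% of all genes higher and 7.98% lower. In erythroid-like cells 36 genes were higher and 6 lower (median 0.28, all genes -0.09). The make-up of the class differed: 532 of 1981 and 18 of 168 cells fell to the finer cluster with macrophage markers, where the sums were 14280.1 and 16709.9 CPM. Within the Car1-led cluster the sums were 23823 and 25675 CPM, and within the Gm867-led cluster 22903 and 28162. The highest were Rrm1, of ribonucleotide reductase (0.58, interval 0.49 to 0.67), Pcna (0.56, interval 0.49 to 0.62), Kif11 (0.54, interval 0.44 to 0.64), Cdc45 (0.54, interval 0.20 to 0.86) and Gins2 (0.53, interval 0.01 to 1.02). The lowest were Chaf1b, a subunit of the chromatin assembly factor (-0.42, interval -0.84 to -0.03), Mcm7 (-0.12, interval -0.24 to 0.00), Ccnb1 (-0.06, interval -0.21 to 0.09), Mcm5 (-0.03, interval -0.16 to 0.10) and Cdc20 (-0.02, interval -0.24 to 0.18). The direction of the sum turned to -0.80 when each library was clustered on its own, where the erythroid-like class of the SCD-labelled library held 2 further clusters of 180 and 108 cells.

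In RPM-like cells the sum was lower in the SCD-labelled library, with a log2 ratio of -0.89, with an interval of -0.94 to -0.84. Of 39 genes with at least 100 UMIs, 28 were at least 2-fold lower and 0 higher, beside 4.28% and 9.18% of all genes, and the median of all genes was 0.20. G2/M genes made up 21 of the 28 and S genes 7. The G2/M sum had a log2 ratio of -1.31, with an interval of -1.39 to -1.23, and the S sum 1 of -0.62, with an interval of -0.68 to -0.56. Pcna (172 and 149 CPM) and Slbp (85.3 and 75.2 CPM) made up a large part of the S sum and moved little. The ratio of the S sum therefore leans on this pair. Cdc45, Gins2 and Chaf1b had under 100 UMIs. By role, 4 of 5 kinetochore and checkpoint genes, 9 of 10 mitotic cyclins, kinases and proteolysis genes, 6 of 7 spindle and cytokinesis genes and 3 of 7 genes of origin licensing and firing were at least 2-fold lower. The lowest were the checkpoint kinase Bub1b (-2.49, interval -3.53 to -1.61), the spindle protein Hmmr (-2.43, interval -3.37 to -1.61), the cytokinesis motor Kif20a (-2.17, interval -3.21 to -1.27), Cdc6 (-2.16, interval -3.10 to -1.33) and cyclin A2, Ccna2 (-2.12, interval -2.54 to -1.72). The highest were Kif23 (0.56, interval 0.35 to 0.77), Mcm4 (-0.10, interval -0.40 to 0.20), Slbp (-0.18, interval -0.32 to -0.04), Pcna (-0.21, interval -0.31 to -0.11) and Cenpa (-0.31, interval -0.61 to -0.02). Several values moved with this difference, and their part in it was not tested. Erythroid marker UMIs of RPM-like cells were at 642 and 132 CPM, and those of the B reference at 584 and 96.3. The sum in the B reference itself was 932 and 773. Different clusters made up the class: 3576 cells with a median of 1638 UMIs and 1117 with 7290 in the wild-type-labelled library, and 1 cluster of 1604 cells with 4144 in the SCD-labelled library. The cluster with the higher depth of the wild-type-labelled library had 916 (95% interval 896 to 936) CPM of cell cycle genes and that with the lower depth 1353 (95% interval 1327 to 1379). Without the shallow cluster the log2 ratio was -0.61 (chosen after seeing the data). In cells with no erythroid UMI in 1000 the means were 1.08 (1.03 to 1.12) and 0.633 (0.591 to 0.678), and in reference cells with none 0.944 (0.834 to 1.06) and 0.704 (0.663 to 0.747). A count of 0 in 1000 UMIs does not show that a cell held no erythroid RNA.

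Ly6c-high monocyte-like cells also had a lower sum in the SCD-labelled library, with a log2 ratio of -1.19, with an interval of -1.24 to -1.13, and 24 of 32 genes were at least 2-fold lower, beside 4.67% of all genes. The G2/M sum had a log2 ratio of -2.24, with an interval of -2.34 to -2.14, and the S sum 1 of -0.43, with an interval of -0.50 to -0.36. Pcna (131 and 146 CPM) and Slbp (84.1 and 82.8 CPM) weigh on the S sum here too. The lowest were Hmmr (-5.99, interval -11.31 to -3.48), Bub1b (-4.75, interval -7.05 to -3.17), cyclin B2, Ccnb2 (-4.45, interval -5.67 to -3.45), the kinetochore motor Cenpe (-3.89, interval -4.97 to -2.99) and Tpx2 (-3.44, interval -4.46 to -2.56), of which Hmmr had 1 and Bub1b 3 UMIs left in the SCD-labelled library. The highest were Kif23 (0.20), Pcna (0.15), Slbp (-0.02), Mcm4 (-0.33) and Aurkb (-0.66). Erythroid marker UMIs of these cells were at 1867 and 1133 CPM, and 20.4% and 14.6% were marked as doublets. The class also differed in make-up. Of its larger cluster, 882 and 46 cells were in a finer cluster led by Vcan and Fn1, with 955 and 368 CPM, and 110 and 686 in 1 led by Emp1, with 550.4 and 418 CPM. Of its other cluster, 220 and 287 cells were in a finer cluster named Ly6c-low monocyte-like, with 914 and 552 CPM. A further 243 and 18 were in 1 led by Vcan, with 1649 and 741 CPM. Erythroid markers were at 3803 and 2203 CPM in the Ly6c-low part and at 4815 and 12030 in the Vcan-led part. The ratio of the class therefore counts composition and level together. EBI-like cells of the 2 libraries lay mainly in different clusters: 624 of 914 cells of the SCD-labelled library were in a cluster that held 10 cells of the wild-type-labelled library. In the Car1-led EBI-like cluster, present in both, the sum was higher in the SCD-labelled library (8434 and 11152 CPM). Over the whole class the log2 ratio was -0.43, with an interval of -0.46 to -0.40, with 4 genes at least 2-fold lower (Mcm2 -1.17, Kif20a -1.11, Cdc45 -1.07 and Ccne1 -1.03), beside 5.44% of all genes, and Mcm7 next (-0.98). The highest were Ccnb2 (0.08), Cenpf (0.06), Kif23 (0.02), Ube2c (-0.01) and Nusap1 (-0.10). In the Il2rb-led cluster the sum had a ratio of 0.00, with an interval of -0.03 to 0.04, and 0 of 39 genes differed by 2-fold, beside 0.487% of all genes higher and 1.19% lower. Among its genes, Cdc6 (-0.44), Nusap1 (-0.42), Bub1 (-0.29), Top2a (-0.26), Birc5 (-0.21) had the lowest ratios and Ccne1 (0.50), Pcna (0.41), Rrm1 (0.35), Mcm6 (0.29), Mcm2 (0.27) the highest. This cluster differed in make-up too. The Cep55-led part had 89 and 103 cells (12584 and 12885 CPM) and the Tlr3-led part 18 and 97 (3913 and 3445). The T lymphocyte-like part had 61 and 67 cells (2325 and 762 CPM). The ratio of 0.00 therefore counts composition and level together.

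Other cell cycle genes were taken from 4 lists. In RPM-like cells 8 of 29 further S genes and 18 of 37 further G2/M genes were at least 2-fold lower in the SCD-labelled library and none of either list higher. Of all genes tested in this class, 4.28% were at least 2-fold lower and 9.18% higher. Among the lowest were Pbk, a mitotic kinase (-4.17, interval -6.47 to -2.59), Nuf2 (-2.31) and E2f8 (-2.73), and among the highest Hjurp, the loader of Cenpa (0.80), Tmpo (0.77) and Polr1b (0.42). Of 12 G1 cyclin, kinase and E2F genes, Myc was higher (1.46, interval 1.16 to 1.76) and E2f2 lower (-1.42, interval -1.85 to -1.01) by 2-fold, with Cdk6 at 0.63 and Cdk4 at -0.58. Among 9 inhibitor and quiescence genes, Cdkn1a, which encodes the p21 inhibitor of cyclin-dependent kinases, was at 73.6 CPM in the wild-type-labelled library and 5.29 in the SCD-labelled library (log2 ratio -3.80, interval -4.29 to -3.34). Cdkn2c was also lower (-1.25), while Btg2 (2.26) and Cdkn1b, which encodes p27 (1.09), were higher. By class, Cdkn1a had 59.9 and 3 in EBI-like cells and 26.2 and 3.63 in erythroid-like cells, whereas it was at 58.9 and 45.9 in Ly6c-high monocyte-like and at 45 and 93.7 in mature DC-like cells. The B reference had 12 and 11 UMIs in all (8.91 and 1.86 CPM). In erythroid-like cells 0.838% of all genes were at least 2-fold higher and 7.98% lower. There 0 of 33 further S genes differed by 2-fold (Brip1 0.62, Fen1 0.61, Rfc4 -0.23, Lig1 -0.31). Of 46 further G2/M genes 1 did (Gtse1 1.01, beside Stmn1 0.81, Jpt1 -0.26 and Cdc25b -0.58). Of the other lists only Ccnd2 (-1.07) and Cdkn1a (-2.85, interval -4.48 to -1.62) did. Cdkn1a had 433 UMIs there in the wild-type-labelled library and 5 in the SCD-labelled library. Ccnd1 (-0.29), Myc (0.52), Cdk2 (0.50), Ccng2 (-0.30), Cdkn2d (0.68) and Cdkn2c (0.70) did not differ by 2-fold.

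The same lists are given for the other comparisons, with log2 ratios of SCD over wild-type after each gene. Myc, a transcription factor of growth and division, is on the higher side in the first 2 of them. Over all kept cells, the further S genes had 0 of 34 at least 2-fold higher and 20 lower in the SCD-labelled library, beside 12% and 9.78% of all genes, with E2f8 -2.11 among the lowest and Polr1b 0.44 among the highest. The further G2/M genes had 0 of 47 at least 2-fold higher and 36 lower, with Cdc25b -2.42 and Cdc25c -2.31 among the lowest and Jpt1 -0.01 and Tmpo -0.01 among the highest. The G1 genes had 2 of 12 at least 2-fold higher and 1 lower, with E2f2 -1.30 and E2f1 -0.90 among the lowest and Myc 1.12 and Ccnd1 1.02 among the highest. The inhibitor and quiescence genes had 1 of 12 at least 2-fold higher and 2 lower, with Cdkn2c -1.43 and Cdkn2d -1.06 among the lowest and Cdkn2b 1.37 and Btg1 0.997 among the highest. In EBI-like cells, the further S genes had 0 of 33 at least 2-fold higher and 8 lower in the SCD-labelled library, beside 3.65% and 5.44% of all genes, with Cdca7 -1.44 among the lowest and Pola1 0.32 and Ubr7 -0.01 among the highest. The further G2/M genes had 0 of 46 at least 2-fold higher and 2 lower, with Psrc1 -2.78 and Spc24 -1.03 among the lowest and Gtse1 0.28 and Hjurp 0.27 among the highest. The G1 genes had 1 of 12 at least 2-fold higher and 0 lower, with E2f1 -0.65 and Rb1 -0.58 among the lowest and Myc 1.56 and Ccnd1 0.54 among the highest. The inhibitor and quiescence genes had 0 of 9 at least 2-fold higher and 1 lower, with Cdkn1a -4.32 and Rbl2 -0.38 among the lowest and Btg1 0.36 and Tob1 0.22 among the highest. In Ly6c-high monocyte-like cells, the further S genes had 0 of 20 at least 2-fold higher and 5 lower in the SCD-labelled library, beside 2.33% and 4.67% of all genes, with Tk1 -1.86 and Lig1 -1.56 among the lowest and Rpa2 0.19 among the highest. The further G2/M genes had 0 of 27 at least 2-fold higher and 11 lower, with Cdca3 -3.00 and Foxm1 -2.96 among the lowest and Cks2 0.38 and Tmpo 0.29 among the highest. The G1 genes had 0 of 11 at least 2-fold higher and 0 lower, with Cdk4 -0.54 and Ccnd2 -0.51 among the lowest and Ccnd1 0.66 and E2f3 0.55 among the highest. The inhibitor and quiescence genes had 0 of 9 at least 2-fold higher and 1 lower, with Cdkn2c -1.27 and Cdkn1a -0.36 among the lowest and Btg2 0.47 and Btg1 0.38 among the highest. In the Il2rb-led cluster, the further S genes had 0 of 27 at least 2-fold higher and 0 lower in the SCD-labelled library, beside 0.487% and 1.19% of all genes, with Brip1 -0.55 and Gmnn -0.49 among the lowest and Rpa2 0.57 and Wdr76 0.52 among the highest. The further G2/M genes had 0 of 42 at least 2-fold higher and 0 lower, with Cdc25b -0.43 and Racgap1 -0.34 among the lowest and Anln 0.54 and Hjurp 0.42 among the highest. The G1 genes had 0 of 9 at least 2-fold higher and 1 lower, with Cdk6 -1.23 and Ccnd2 -0.37 among the lowest and E2f3 0.55 and Ccnd3 0.36 among the highest. The inhibitor and quiescence genes had 0 of 6 at least 2-fold higher and 0 lower, with Rbl2 -0.20 and Cdkn2c -0.13 among the lowest and Btg2 0.72 and Cdkn2d 0.41 among the highest.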

How the data were processed

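Spleen cells of 2 libraries, 1 mouse each, were taken as the UMI counts per gene and cell that the authors deposited, unnormalized, made, per the submitters' processing notes, with Cell Ranger 4.0.0 on GRCm38.p6 from Chromium 3′ v3.1 libraries loaded on 1 chip. The header of the matrices gives another Cell Ranger version. Depth was 145953464 UMIs in 24144 barcodes of the wild-type-labelled library and 73986356 in 15442 of the SCD-labelled library.

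Barcodes were kept where 500 to 5000 genes were found and where mitochondrial genes took less than 15% of the UMIs and ribosomal proteins less than 30%. Genes had to be found in at least 20 cells. Size factors came from scran 1.30.0. The 2000 variable genes were taken without the listed cell cycle genes and without globin, sex-linked and 7 heme genes. With 30 components and 15 neighbours they entered Leiden clustering at resolution 1 (scanpy 1.11.5). Clusters were named from marker lists. The limits for naming (at least 3 markers, 2-fold, 4-fold for macrophages) were set after a first clustering was seen. UMIs were summed per class and scaled to 1000000 (CPM). Intervals are exact at 95% and conditional binomial for ratios. They were tested only on simulated Poisson counts, the model they assume, so that test does not cover spread between cells. A gene entered a ratio with at least 100 UMIs. Doublets stayed in. Scrublet marked 0 cells of the wild-type-labelled library, so that its automatic limit had not worked there, and the 10% with the highest scores (2046) were used instead, beside 1712 of the other library. Named genes were 17 chosen for their roles, the 5 highest and 5 lowest ratios per comparison, and 2 of each for the other lists, of which some genes are not reported here. The genes and lists were chosen with earlier results of these data known. Alternatives changed 1 choice at a time.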

Additional observations from a re-analysis of the deposited data

How the results depend on the processing

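With 1 library per group no library could be left out, and no paired analysis was possible because each group holds 1 sample. The log2 ratio over all kept cells (-1.78) was -1.69 without doublets, -1.69 without an upper limit on genes, -1.72 as a mean over single cells, -1.77 without hemoglobin, mitochondrial and ribosomal-protein UMIs in the total, -2.05 for G2/M genes and -1.42 for S genes. In erythroid-like cells (0.29) it was 0.23 and 0.23 under the first 2 of these, 0.16 with library size factors, 0.25 with cell cycle genes kept for clustering, 0.35 and 0.16 at resolutions 0.5 and 2, 0.25 as a mean over cells and 0.35 with the reduced total, and turned to -0.80 with each library clustered on its own, where the class of the SCD-labelled library held further clusters. In RPM-like cells (-0.89) it was -0.81 without doublets, -0.96 without the upper limit, -1.06 with cell cycle genes kept, -0.82 at resolution 2, -0.94 with the reduced total, -1.31 for G2/M genes and -0.62 for S genes, and, chosen after seeing the data, -0.61 without the RPM-like cluster of lowest depth and -0.62 with the ratio of the B reference subtracted. The percent of RPM-like cells with at least 3 UMIs in the wild-type-labelled library (13.4%) was 28.3% and 4.64% with limits of 2 and 5 UMIs, 27.4% at 2000 UMIs and 6.97% without the cluster of lowest depth. In the SCD-labelled library (4.35%) it was 3.27% with cell cycle genes kept, 3.33% with the library clustered on its own, 11.4% and 1.74% with limits of 2 and 5 UMIs and 9.65% at 2000 UMIs. In the B reference the same limits and depth gave 25.8%, 0.781% and 28.1%, and 15.1%, 0.759% and 16.1%. The ratio of RPM-like cells with at least 3 to those with 0 erythroid UMIs in the wild-type-labelled library (1.63) was 1.94 with cell cycle genes kept, 1.82 at resolution 0.5 and 2.10 without the cluster of lowest depth. In the SCD-labelled library (0.451, 7 cells) it was 2.04 without doublets, 3.55 with cell cycle genes kept, 3.53 at 2000 UMIs and 2.47 with another thinning seed, so that its direction cannot be read. The causes of these differences between settings were not tested.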
